A study of Mus musculus with 6 samples.

Results

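The genes described here are 9 secreted or cell-surface regulators of blood and lymph vessels, taken by gene symbol from a deposited table of 24346 genes: the VEGF-family ligands Vegfa, Vegfb, Vegfc and Pgf, the neuropilins Nrp1 and Nrp2, the angiopoietins Angpt1 and Angpt2, and the apelin gene Apln. All 9 were in the table. The mRNA came from wild-type mice aged 12 weeks, from the proximal epididymis (initial segment plus caput), where sperm begin to mature. Every mouse had received an intraperitoneal injection, either of busulfan, an alkylating agent that kills dividing germ cells in the testis, or of the solvent DMSO, and each group had 3 libraries. The dose and the interval before collection were not given in the sources used here, and an effect of the drug on the duct cannot be told apart from an effect of germ cell loss. The labels number the libraries of a group and do not say that each came from its own mouse, so the p-values measure the spread between these libraries, which may be technical in part.

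VEGFA is the main growth signal for blood vessel endothelium and acts through the receptors VEGFR1 (gene Flt1) and VEGFR2 (Kdr). PGF and VEGFB bind VEGFR1 but not VEGFR2, and VEGFC and VEGFD act mainly through VEGFR3 (Flt4) on lymphatic vessels. Neuropilins are co-receptors shared by VEGF ligands and class 3 semaphorins. Angiopoietin 1 activates the receptor TIE2 (Tek), angiopoietin 2 is its context-dependent antagonist, and apelin is a ligand of the receptor gene Aplnr. In the epididymis the proximal segments have the densest capillary bed.

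Levels are the authors' normalized FPKM, fragments per kilobase of transcript scaled to library size. They divide by length and so can be compared between genes, but only roughly, since the transcript lengths used were not given. The summed FPKM was 707219 to 732495 in the DMSO libraries and 625087 to 666662 in the busulfan libraries. The depth was estimated roughly, from the smallest values of 101 low, long, single-transcript genes, at about 12300000 fragments per library (quartiles over the genes 6700000 to 13100000). The caput genes Gpx5, Lcn5 and Adam7 were abundant in every library, the lowest value being 3270 FPKM for Adam7. The 12848 genes averaging 1 FPKM or more entered a limma test on log2(FPKM + 1), with Benjamini-Hochberg adjustment over all of them and a threshold of 0.05. Log2 changes below are busulfan minus DMSO on that scale, which understates changes of low genes, and folds are ratios of group mean FPKM.

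The ligands did not move together. Vegfa fell to 60.0% of its DMSO level and Pgf rose to 162%, so that the most abundant ligand of the 9 was Vegfa in each DMSO library and Pgf in each busulfan library. Nrp1 fell to 66.1%, while Nrp2 did not pass the test. Of the 6 members averaging 1 FPKM or more, 2 fell (Vegfa, Nrp1), 2 rose (Pgf, Vegfb) and 2 did not pass (Vegfc, Nrp2). The Vegfb call (limma adjusted p = 0.0495) was lost with any library left out, and the Nrp1 call without DMSO replicate 3. Among all tested genes 42.8% were called, 20.8% higher and 22.1% lower, so calls are common in this comparison and 4 of 6 is given as a description. The busulfan and DMSO libraries did not overlap for 5 of the 6 tested members, against 54.6% of all tested genes. Angpt1, Angpt2 and Apln were under 1 FPKM on average and were not tested with the others.

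**Figure D1:**
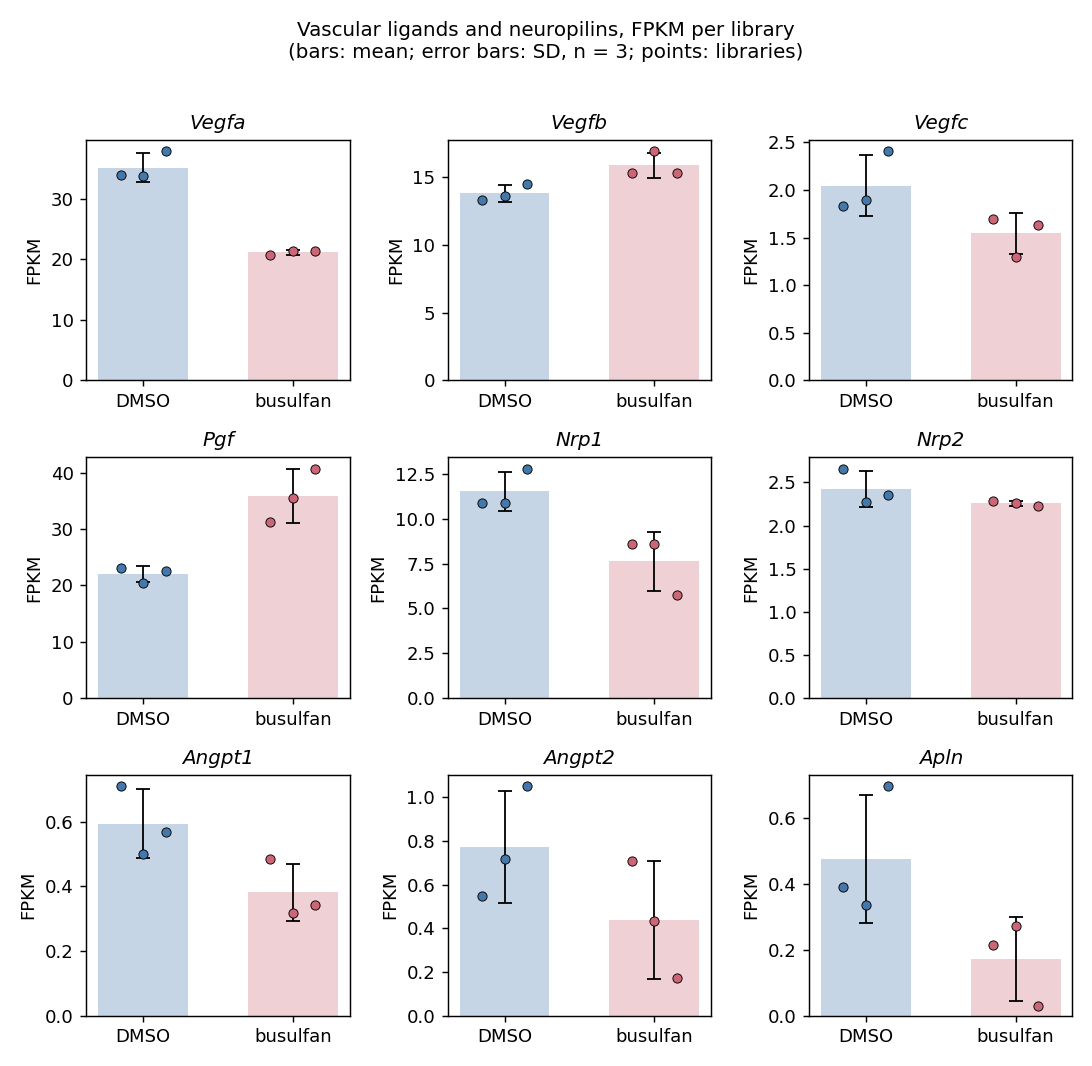
FPKM of the 9 genes (vertical axes, each panel with its own scale from 0) in the DMSO and busulfan libraries; points are libraries, bars are means and error bars are SD (n = 3 per group). Vegfa and Nrp1 are lower and Pgf is higher in every busulfan library than in any DMSO library, while Nrp2 and Angpt2 overlap.

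Promoter sequences are shown for Vegfa, Vegfb and Nrp1, the members past the threshold whose window of 250 bases before the RefSeq transcription start (build GRCm38.p6) held no exon annotated in GENCODE M21. The Pgf window lies in an annotated exon and is not shown. The Nrp1 window lies inside the GENCODE gene, which starts farther upstream. The sequences run 5′ to 3′ on the coding strand, and capitals mark GC boxes (GGGCGG or its reverse complement CCGCCC), the binding motif of Sp family factors.
Vegfa, chr17:46032378-46032627, minus strand: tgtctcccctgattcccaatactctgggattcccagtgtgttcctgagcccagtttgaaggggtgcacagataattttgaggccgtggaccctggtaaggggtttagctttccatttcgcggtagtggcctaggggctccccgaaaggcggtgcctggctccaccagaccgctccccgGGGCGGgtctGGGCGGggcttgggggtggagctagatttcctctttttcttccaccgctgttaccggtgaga
Vegfb, chr19:6987652-6987901, minus strand: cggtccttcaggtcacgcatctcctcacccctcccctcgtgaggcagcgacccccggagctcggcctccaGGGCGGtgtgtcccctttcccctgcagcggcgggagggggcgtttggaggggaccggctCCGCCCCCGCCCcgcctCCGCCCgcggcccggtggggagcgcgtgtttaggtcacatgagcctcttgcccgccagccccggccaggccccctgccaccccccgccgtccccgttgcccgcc
Nrp1, chr8:128358823-128359072, plus strand: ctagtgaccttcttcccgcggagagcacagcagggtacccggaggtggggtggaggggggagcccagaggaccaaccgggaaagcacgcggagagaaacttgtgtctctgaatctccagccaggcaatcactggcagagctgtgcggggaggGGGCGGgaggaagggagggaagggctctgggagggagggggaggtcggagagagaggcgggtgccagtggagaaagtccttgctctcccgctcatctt

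The window of Vegfa held 2 GC boxes, that of Vegfb 4 and that of Nrp1 1. RefSeq promoters matched 7 of the 9 members, without Angpt1 and Angpt2, and 8 of their 9 windows held at least 1 GC box, against 32.7% of all 32851 promoter windows; the second Pgf window held none. These windows are also rich in G and C (59.2% for Vegfa, 76.4% for Vegfb and 64.4% for Nrp1, against a median of 52.4% over all windows). Both strands were also searched for the core of the hypoxia response element (ACGTG, in 16.6% of all windows), an ETS core (CCGGAA, 12.0%) and an AP-1 site (TGACTCA, 4.46%). Over the 9 windows of the 7 members, the ETS and AP-1 letters had no match and ACGTG had 1, in the second Vegfa window. A match or its absence concerns only these letters in these windows.

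Vegfa (NCBI gene 22339; chromosome 17, 46016993 to 46032369, minus strand, on GRCm38, the assembly also called mm10) measured 33.9, 33.7 and 37.9 FPKM after DMSO and 20.7, 21.4 and 21.3 FPKM after busulfan. The busulfan libraries lay close together and all lay below the lowest DMSO library. The means were 35.2 ± 2.33 and 21.1 ± 0.378 FPKM (SD, n = 3 per group), and the log2 change was -0.71 (95% interval -0.84 to -0.57; limma adjusted p = 4.34e-05). The fall passed the test with any library left out. GENCODE lists 13 transcripts of Vegfa, whose differing exons encode proteins that bind matrix to different degrees, and the gene-level FPKM do not separate them.

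Pgf (NCBI gene 18654; chromosome 12, 85166635 to 85177790, minus strand) encodes placental growth factor, a ligand of VEGFR1 and neuropilin 1. It measured 23.1, 20.4 and 22.6 FPKM after DMSO and 31.2, 35.5 and 40.7 FPKM after busulfan. The busulfan libraries were all above the DMSO libraries and more spread out. The means were 22.0 ± 1.42 and 35.8 ± 4.76 FPKM, and the log2 change was 0.67 (95% interval 0.45 to 0.89; limma adjusted p = 8.21e-04).

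Vegfb (NCBI gene 22340; chromosome 19, 6982473 to 6987651, minus strand), a VEGFR1 ligand best known for roles in heart and fatty acid uptake, measured 13.3, 13.6 and 14.5 FPKM after DMSO and 15.3, 16.9 and 15.3 FPKM after busulfan. The groups did not overlap, but the rise was small, 1.14-fold, with a log2 change of 0.18 (95% interval 0.04 to 0.33; limma adjusted p = 0.0495). That call rests on the threshold. It was lost when any one of the 6 libraries was left out (limma adjusted p of 0.0505 to 0.174) and when all genes above 0 were tested (limma adjusted p = 0.0655).

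Vegfc (NCBI gene 22341; chromosome 8, 54077606 to 54187096, plus strand), a lymphatic growth factor, measured 1.83, 1.90 and 2.41 FPKM after DMSO and 1.70, 1.30 and 1.63 FPKM after busulfan. The lowest DMSO library lay just above the highest busulfan library. The log2 change of -0.26 did not pass (95% interval -0.53 to 0.02; limma adjusted p = 0.119). The remaining VEGF ligand, Vegfd (listed as Figf), is not among the 9. It fell from 8.64 ± 0.548 to 4.68 ± 0.575 FPKM (log2 change -0.77, limma adjusted p = 3.13e-04).

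The balance of ligands within a library changed with these levels. The ratio of Vegfa to Pgf FPKM was 1.47, 1.65 and 1.68 after DMSO and 0.663, 0.603 and 0.523 after busulfan. It lay above 1 in every DMSO library and below 1 in every busulfan library. Its place relative to 1 depends on the transcript lengths used for the 2 genes, which were not given. The ratio of Vegfa to Vegfb went from 2.54 ± 0.0686 to 1.34 ± 0.0648, and that of Vegfa to Vegfc from 17.3 ± 1.46 to 13.9 ± 2.30. On the log2 scale with a pseudocount of 1, the differences were -1.38 for Vegfa to Pgf, -0.89 for Vegfa to Vegfb and -0.45 for Vegfa to Vegfc. For the first of these the libraries of both groups lay far apart relative to their spread (SD 0.10 and 0.17 in log2). Each of the 3 ratios had an exact permutation p of 0.10 (two-sided), the smallest that 3 against 3 allows, and 0.125 after adjustment over the 5 ratios tested, so none could pass.

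**Figure D2:**
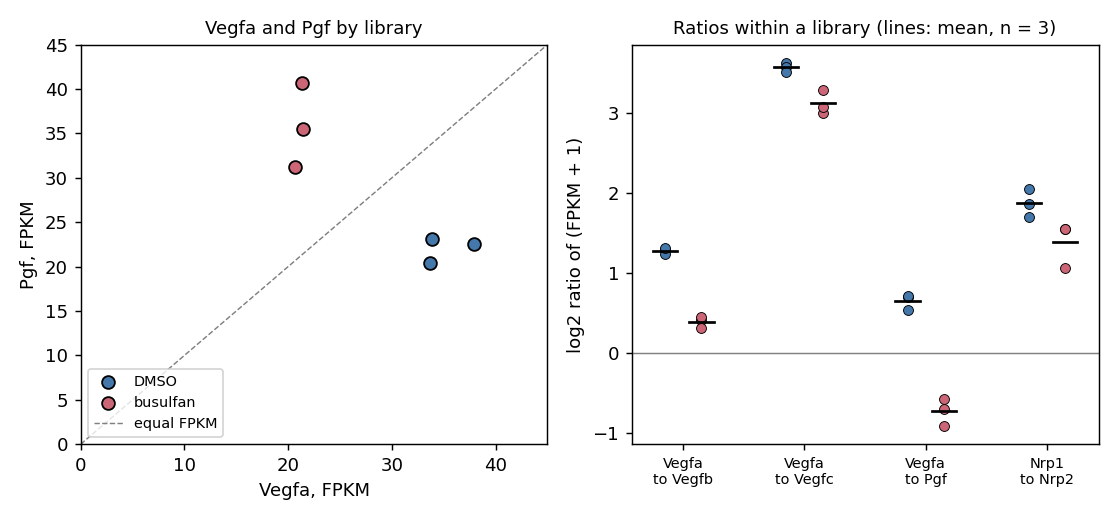
Left, Pgf against Vegfa in FPKM for each library, with a dashed line where both are equal: the DMSO libraries lie below the line and the busulfan libraries above it. Right, log2 ratios of (FPKM + 1) between pairs of genes in each library (points) with group means (lines, n = 3); the Vegfa to Pgf ratio changes sign between the groups.

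Nrp1 (NCBI gene 18186; chromosome 8, 128358604 to 128503363, plus strand) encodes the neuropilin that binds VEGFA and semaphorin 3A and is present on endothelium, some mesenchymal cells and other cell types. It measured 10.9, 10.9 and 12.8 FPKM after DMSO and 8.62, 8.57 and 5.74 FPKM after busulfan. All busulfan libraries were below all DMSO libraries, and busulfan replicate 3 was lower than the other two. The means were 11.6 ± 1.11 and 7.64 ± 1.65 FPKM, and the log2 change was -0.55 (95% interval -0.88 to -0.23; limma adjusted p = 0.0137). Without DMSO replicate 3 the change was -0.48 and the call was lost (limma adjusted p = 0.0522), and without busulfan replicate 3 it was -0.38 (limma adjusted p = 0.0109).

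Nrp2 (NCBI gene 18187; chromosome 1, 62703285 to 62818695, plus strand), the neuropilin that pairs with VEGFR3 in lymphatic vessels and binds semaphorin 3F, measured 2.66, 2.27 and 2.35 FPKM after DMSO and 2.29, 2.26 and 2.23 FPKM after busulfan. The groups overlapped. The log2 change was -0.07 (95% interval -0.28 to 0.14; limma adjusted p = 0.582), so the interval allows a small change either way. The ratio of Nrp1 to Nrp2 was 4.11, 4.81 and 5.47 after DMSO and 3.76, 3.79 and 2.57 after busulfan. It was lower in every busulfan library (log2 difference -0.49, exact permutation p = 0.10, adjusted 0.125), and 0.10 is the smallest p this design allows. Without busulfan replicate 3 the difference was -0.32.

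Angpt1 (NCBI gene 11600; chromosome 15, 42424723 to 42676977, minus strand) measured 0.709, 0.500 and 0.569 FPKM after DMSO and 0.483, 0.318 and 0.343 FPKM after busulfan. Each busulfan library was below each DMSO library, but the nearest, at 0.483 and 0.500 FPKM, rest on an estimated 25 and 26 fragments. Angpt2 (NCBI gene 11601; chromosome 8, 18690263 to 18741562, minus strand) stood at 0.548, 0.719 and 1.05 FPKM against 0.710, 0.432 and 0.173 FPKM. Its groups overlapped, and busulfan replicate 3 was the lowest library. The ratio of Angpt1 to Angpt2 ran from 0.539 to 1.29 with DMSO and from 0.680 to 1.98 with busulfan, so no difference was detectable (exact permutation p = 0.60, also after adjustment). The third angiopoietin gene, Angpt4, which is not among the 9, was more abundant than either at 5.09 ± 0.228 and 4.27 ± 1.30 FPKM and did not pass (limma adjusted p = 0.285).

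Apln (NCBI gene 30878; chromosome X, 48025146 to 48034853, minus strand) measured 0.390, 0.337 and 0.697 FPKM after DMSO and 0.216, 0.271 and 0.0282 FPKM after busulfan. All busulfan libraries were lower, and busulfan replicate 3 was nearly empty. The single annotated transcript of Apln has 3149 bases, on which 1 fragment amounts to about 0.0259 FPKM at the estimated depth. The Apln values therefore rest on about 13 to 27 fragments per DMSO library and about 1 to 10 per busulfan library. When all genes above 0 were tested, none of the 3 low members passed: the limma adjusted p was 0.0874 for Angpt1, 0.201 for Angpt2 and 0.0762 for Apln, with log2 changes of -0.21, -0.31 and -0.33. Apela, which encodes the other ligand of the apelin receptor, was listed at 0 in all 6 libraries.

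In order of group mean, the DMSO levels ran Vegfa, Pgf, Vegfb, Nrp1, Nrp2, Vegfc, Angpt2, Angpt1 and Apln. The busulfan means had the same order except that Pgf and Vegfa changed places. Single libraries could depart from it, as in DMSO replicate 1, where Angpt1 (0.709 FPKM) was above Angpt2 (0.548 FPKM). Among neighbours in the DMSO order, the ranges of Nrp2 and Vegfc, of Angpt2 and Angpt1, and of Angpt1 and Apln overlapped. In the busulfan order only Angpt2 and Angpt1 overlapped.

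The VEGF, TIE and apelin receptor genes were mostly lower with busulfan. Of the 6 receptor genes, all tested, 5 fell, none rose and Aplnr missed the threshold. Their median log2 change was -0.62, against -0.00 over all tested genes and 22.1% of them called lower. This list and those below were chosen with earlier results of these data known, so their counts are descriptions only. Kdr (VEGFR2) measured 7.04, 7.18 and 9.15 FPKM after DMSO and 2.83, 2.75 and 1.77 FPKM after busulfan, which is 31.5% of its DMSO mean (log2 change -1.36, limma adjusted p = 1.90e-04). Flt1 (VEGFR1), the receptor of Pgf and Vegfb as well as of Vegfa, stood at 5.10, 5.17 and 5.48 FPKM against 2.24, 1.91 and 1.54 FPKM (36.1% of the DMSO mean, log2 change -1.12, limma adjusted p = 8.34e-05). For both genes the groups were well apart.

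Among the TIE receptors, Tie1 fell from 5.59 ± 0.297 to 2.86 ± 0.442 FPKM (limma adjusted p = 5.31e-04) and Tek from 2.68 ± 0.122 to 1.66 ± 0.188 FPKM (limma adjusted p = 0.00550). Flt4 (VEGFR3) went from 1.62 ± 0.131 to 1.02 ± 0.295 FPKM with a limma adjusted p of 0.0490, a call lost when any library but busulfan replicate 1 was left out (limma adjusted p up to 0.127). It was also lost with a pseudocount of 0.1, without a filter, with median-ratio scaling and with a replicate block (limma adjusted p of 0.0509 to 0.0610). In those 4 settings the receptor falls numbered 4. Aplnr stood at 1.97 ± 0.453 and 1.40 ± 0.334 FPKM (limma adjusted p = 0.142). Pgf was thus the member that moved opposite to its receptor by the widest margin, with log2 changes of 0.67 for Pgf and -1.12 for Flt1.

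**Figure D3:**
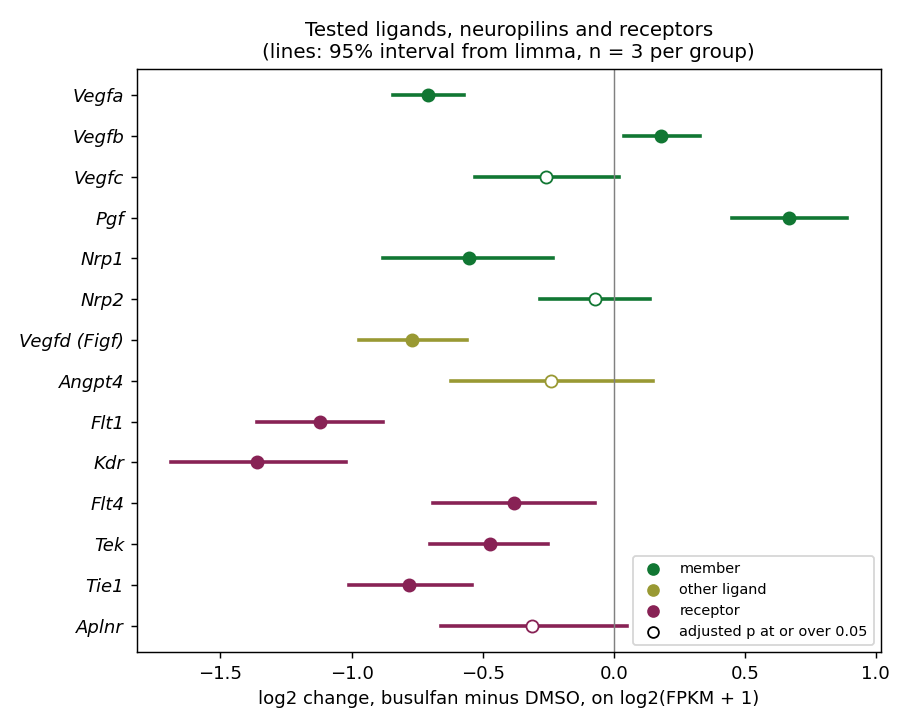
Log2 change (horizontal axis, busulfan minus DMSO on log2(FPKM + 1)) with its 95% interval from limma (n = 3 per group) for the tested members, for Vegfd and Angpt4 and for the receptors. Filled points passed the adjusted threshold: Vegfa, Nrp1 and Vegfd lie left of 0 with 5 of the receptors, and Pgf and Vegfb lie right of it.

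Many endothelial markers were lower in the same libraries. Among 18 tested, falls numbered 11 with no rises, against 22.1% of all tested genes called lower, and 7 missed the threshold (median log2 change -0.53). The choice of this list was also made with earlier results known, so the count is a description. Without DMSO replicate 3 the falls numbered 8. The summed level of all 18 went from 251 to 276 FPKM in the DMSO libraries to 116 to 143 FPKM in the busulfan libraries. The largest falls were those of Plvap, a protein of fenestrated capillaries (41.4 ± 4.81 to 5.09 ± 0.692 FPKM), Cd34, which fibroblasts also express (77.2 ± 6.88 to 20.1 ± 3.72 FPKM), Emcn (15.5 ± 1.11 to 5.90 ± 0.649 FPKM) and Eng (12.6 ± 0.911 to 5.30 ± 1.10 FPKM). Egfl7, an endothelial gene picked here with its values already seen, was at 42.7 ± 0.860 and 41.5 ± 1.76 FPKM (limma adjusted p = 0.543). In whole tissue, fewer cells of a type and less RNA per cell cannot be told apart. Of 10 fibroblast markers falls numbered 7 with no rises (median log2 change -0.71), with summed levels of 387 to 485 FPKM and 222 to 326 FPKM. No endothelial or fibroblast marker was at 0 in every library.

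Libraries numbered 3 stood apart in these markers, in opposite directions. Busulfan replicate 3, the lowest library for Nrp1, Angpt2 and Apln, was the lowest library for 15 of 18 endothelial markers (83.3%), 10 of 10 fibroblast markers and 5 of 6 receptors, against 17.3% of all tested genes. DMSO replicate 3 was the highest library for 11 of 18 endothelial markers (61.1%), 6 of 10 fibroblast markers and 4 of 6 receptors, against 20.7% of all tested genes. It was also the highest for Vegfa, Vegfc, Nrp1, Angpt2 and Apln, and the Nrp1 call was lost without it. For a gene lower in every busulfan library, the lowest library is always a busulfan one and the highest a DMSO one. The shares over all tested genes are therefore a low standard for lists that mostly fell. The part of these cell types in the values of the members was not tested.

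How Vegfa and Nrp1 compared with the endothelial markers of the same library depended on a pair of abundant markers, Cd34 and Plvap. Against the sum of all 18 markers, the Vegfa ratio was 0.133, 0.134 and 0.137 with DMSO and 0.144, 0.166 and 0.184 with busulfan, and the log2 difference with a pseudocount of 1 was 0.30. Against the other 16 markers, whose sum went from 142 ± 9.01 to 104 ± 9.74 FPKM, the Vegfa ratio was 0.249, 0.245 and 0.248 with DMSO and 0.180, 0.209 and 0.223 with busulfan, a difference of -0.26. The direction for Vegfa therefore turned with the choice of markers. Nrp1 differed by 0.46 against all 18 markers and by -0.10 against the 16, where its groups overlapped. When the mean log2 level of the 18 markers, which weights them alike, took the place of the sum, the differences were -0.04 for Vegfa and 0.11 for Nrp1, with overlapping groups. No direction is given for these 2 genes relative to endothelial markers. For Pgf the differences were 1.68, 1.12 and 1.34 in these 3 comparisons, and for Vegfb they were 1.19, 0.63 and 0.85, with every busulfan library above every DMSO library. On the log2 scale with a pseudocount of 1, the same held for Vegfc (0.75, 0.19 and 0.41) and Nrp2 (0.94, 0.38 and 0.60). The plain Vegfc ratios to the 16 markers overlapped, however (0.0134 to 0.0158 with DMSO, 0.0127 to 0.0171 with busulfan). The exact permutation p of each non-overlapping comparison was 0.10, the smallest possible. For the 3 members under 1 FPKM the pseudocount largely sets these values, and with a pseudocount of 0.1 the Apln difference against all 18 markers turned from 0.68 to -0.15. Both other choices of markers were added after the data had been seen.

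Regulators and target genes of VEGF signalling mostly fell. Among 14 tested, falls numbered 9 and rises 3, and 2 missed the threshold (median log2 change -0.43). Over all tested genes, 22.1% were called lower and 20.8% higher, but the list was chosen with earlier results known, so its counts are a description. Esm1, an endothelial proteoglycan gene induced by VEGF, measured 3.35, 4.18 and 3.06 FPKM after DMSO and 0.293, 0.496 and 0.481 FPKM after busulfan, 12.0% of its DMSO mean (log2 change -1.67, limma adjusted p = 3.03e-05). Plcg1, the phospholipase recruited by VEGFR2 and by other receptor kinases in many cell types, fell from 49.1 ± 3.28 to 19.3 ± 2.17 FPKM (limma adjusted p = 1.10e-05). Notch1, a receptor with many roles outside vessels, rose from 15.8 ± 1.47 to 30.7 ± 1.44 FPKM. Vash2, a vasohibin gene, measured 2.65, 1.56 and 1.80 FPKM after DMSO and 2.85, 4.19 and 5.56 FPKM after busulfan, a rise (limma adjusted p = 0.0168), a call lost without DMSO replicate 2 or 3 (limma adjusted p of 0.0602 and 0.0553). The endothelial and fibroblast markers given above were lower in the same libraries.

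The class 3 semaphorins, which compete with or accompany VEGF ligands at neuropilins, and the plexins that signal for them moved in both directions. Among 9 tested, falls numbered 3 and rises 2, and 4 missed the threshold (median log2 change 0.21). Of all tested genes 22.1% were called lower and 20.8% higher, so calls in both directions are common in this comparison. Sema3d measured 5.07, 5.90 and 6.85 FPKM after DMSO and 0.352, 0.356 and 0.381 FPKM after busulfan, a 16.4-fold fall (log2 change -2.34, limma adjusted p = 2.21e-06). Sema3b fell from 20.6 ± 0.397 to 6.39 ± 0.176 FPKM (limma adjusted p = 3.46e-07). Sema3c, the most abundant of the list, rose from 52.5 ± 2.59 to 73.2 ± 1.69 FPKM (limma adjusted p = 2.06e-04). Plxna3 rose 2.62-fold, from 1.61 ± 0.242 to 4.24 ± 0.181 FPKM (limma adjusted p = 1.05e-04).

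Vegfa is a target of the hypoxia-inducible factors, and the other genes of that pathway did not share one direction. Among 24 tested, falls numbered 6 and rises 4, and 14 missed the threshold (median log2 change 0.02), a share called close to the 42.8% of all tested genes. With quantile normalization the balance turned to 7 rises and 4 falls. Among the falls, P4ha2, a collagen prolyl hydroxylase gene, went from 68.1 ± 5.45 to 2.70 ± 0.183 FPKM, a 25.2-fold fall (limma adjusted p = 6.71e-09). Egln3, which encodes an oxygen-sensing prolyl hydroxylase, fell to 1.62 ± 0.241 FPKM, 16.1% of its DMSO mean (limma adjusted p = 1.36e-06), and the hexokinase gene Hk2 fell to 17.3 ± 0.742 FPKM, 52.5% of its DMSO mean (limma adjusted p = 2.24e-05). Ddit4, an inhibitor of mTOR signalling, rose from 52.8 ± 2.31 to 89.4 ± 4.87 FPKM (limma adjusted p = 2.83e-05). Hif1a, also picked with its values already seen, was at 24.4 ± 0.515 and 24.5 ± 0.683 FPKM (limma adjusted p = 0.878), and Epas1, likewise, fell from 42.0 ± 2.97 to 29.6 ± 2.46 FPKM (limma adjusted p = 0.00122). Leaving out busulfan replicate 2 reduced the calls in this list from 10 to 6.

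**Figure D4:**
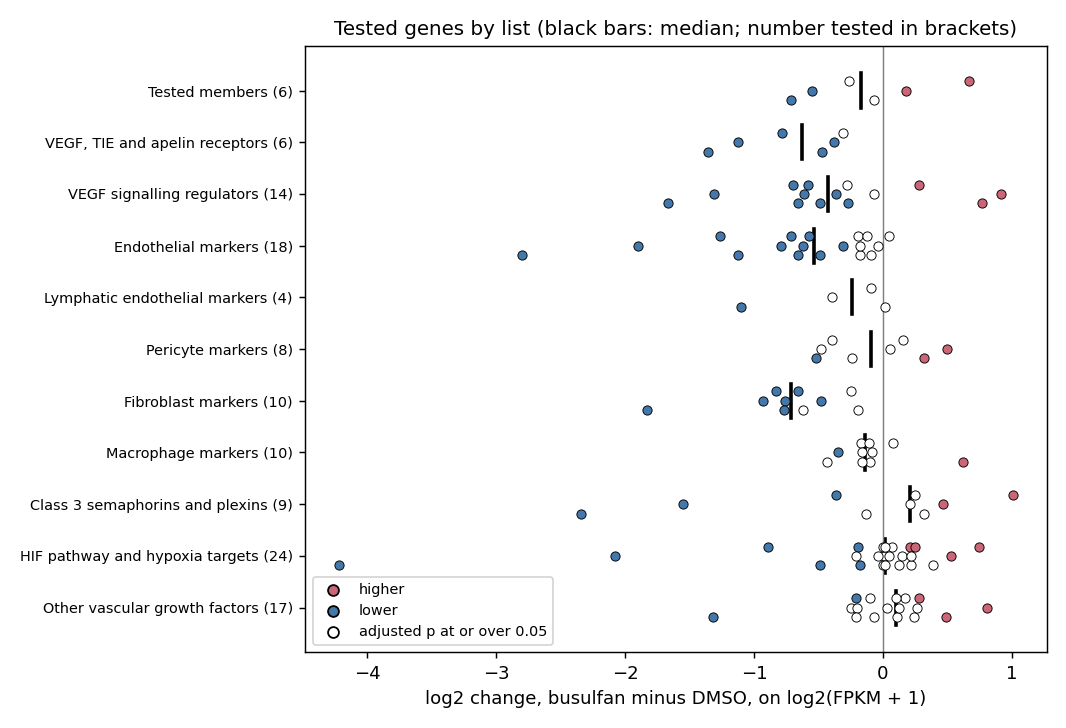
Log2 change (busulfan minus DMSO on log2(FPKM + 1)) of each tested gene by list, with the number tested in brackets; blue points were called lower, red higher and white neither, and black bars are medians. Receptors, endothelial and fibroblast markers lie mostly left of 0, whereas the members, semaphorins and hypoxia genes lie on both sides.

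The genes most like each called member were found among the 9166 tested genes averaging 5 FPKM or more, by the root mean square difference over the 6 libraries of log2(FPKM + 1) centred on the DMSO mean. For Vegfa they were Tmf1 (difference 0.032), Pea15a (0.034) and Dync1li2 (0.040), and for Pgf they were Serpinb6b (0.039), Rab3il1 (0.050) and Kcnmb4 (0.058). For Vegfb they were Dhx37 (0.026), Bud13 (0.033) and Ccdc61 (0.034). The genes nearest to Nrp1 were less close: Emp1 (0.072), Sfrp1 (0.075) and the endothelial cadherin gene Cdh5 (0.078), which went from 7.51 ± 0.718 to 4.79 ± 1.08 FPKM.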

How the data were processed

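Levels are normalized FPKM, as deposited by the authors in a single table without counts; the unit is stated per the file headers. TopHat2 2.1.1, Cufflinks 2.2.1 and mm10 are named per the submitters' processing notes, without roles. RNeasy extraction and TruSeq stranded mRNA libraries are given per the labels' protocols. The normalization between libraries, annotation and strand setting were not given in the sources used here. Overlapping or antisense transcripts therefore cannot be separated.

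The genes averaging 1 FPKM or more were tested with limma 3.58.1 (R 4.3.3, mean-variance trend) on log2(FPKM + 1), all 6 libraries in 1 fit, with Benjamini-Hochberg adjustment and a threshold of 0.05. The test was run on simulated data first. Ratios used exact permutation tests in scipy 1.17.1, and figures used matplotlib 3.10.9. Depth is a rough estimate, so no count test was run. No libraries were identical. Coordinates are from GENCODE M21 and promoters from RefSeq (GRCm38.p6), matched by symbol. Of 163 list entries, 3 were found under older symbols by NCBI gene ID.

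The members and lists were chosen with earlier results of these data known. All members, the receptors and 3 alike genes per called member are named. Most lists name up to 4 called genes with the largest changes. No fibroblast gene is named, and of the epithelial list only Gpx5, Lcn5 and Adam7 are. Angpt4, Apela, Prox1, Gpx5 and Adam7 are named outside that rule. Egfl7, Hif1a and Epas1 are marked as picked with their values seen. Alternatives were another pseudocount, other filters, quantile and median-ratio normalization, a replicate block, each library left out and other summaries of the endothelial markers.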

Additional observations from a re-analysis of the deposited data

How the results depend on the processing

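Vegfa and Pgf kept their direction and their call under each alternative run, with log2 changes of -0.74 to -0.63 and 0.58 to 0.76. Genes called numbered 4405 to 5541 (4447 to 5046 with a library left out), and quantile normalization moved the share called higher from 48.5% to 58.4% (3234 higher, 2307 lower). Members called numbered 2 to 3 with a library left out. Vegfb kept its log2 change of 0.18 but lost its call without a filter (limma adjusted p = 0.0655) and with a replicate block (0.18, limma adjusted p = 0.0910), and ranged from 0.14 to 0.22 with a library left out. Nrp1 ranged from -0.64 to -0.38. With a pseudocount of 0.1, which weights low values more, Angpt1 changed by -0.53, Angpt2 by -0.79 and Apln by -1.17. The Angpt1 to Angpt2 difference of 0.10 ran from -0.02 to 0.25 with a library left out and was -0.02 without DMSO or busulfan replicate 3; the cause was not tested. The Apln to endothelial difference was -0.15 with a pseudocount of 0.1. Against the endothelial sum without Cd34 and Plvap, the Vegfa difference turned to -0.26 and the Nrp1 difference to -0.10, and against the mean log2 level of the markers the Vegfa difference turned to -0.04. Cd34 and Plvap fell the most of the 18 markers. Same-numbered libraries did not deviate together (correlations of -0.18, -0.02 and -0.18). The deviations were centred within each small group, so these values cannot exclude a pairing by number. The replicate block reduced the genes called from 5501 to 4627. With a mean of 5 FPKM required, Vegfc and Nrp2 were not tested and the receptor list kept only Kdr. The members under 1 FPKM rest on an estimated 1 to 46 fragments per library, which limits them.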

Other observations

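Of 17 tested genes of other growth factors that act on vessels, 3 rose, 2 fell and 12 did not pass, a smaller share called than the 42.8% of all tested genes. Tgfb1, which encodes a matrix-inducing cytokine, fell from 45.7 ± 10.4 to 17.4 ± 0.893 FPKM (log2 change -1.32, limma adjusted p = 1.42e-04). The vasoconstrictor gene Edn1 rose from 2.18 ± 0.437 to 4.61 ± 1.03 FPKM (limma adjusted p = 0.00419). Pdgfb, the ligand that recruits pericytes, rose from 5.56 ± 0.0695 to 8.22 ± 0.354 FPKM (limma adjusted p = 4.99e-04), and Efnb2, an arterial ephrin gene, rose from 12.9 ± 0.463 to 15.9 ± 0.806 FPKM (limma adjusted p = 0.00679).

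Over all tested genes, 42.8% were called, 20.8% higher and 22.1% lower, which stands beside the counts that follow. Of 8 pericyte markers 2 rose (Notch3 and Kcnj8), 1 fell (Rgs5) and 5 did not pass. Without busulfan replicate 2 or busulfan replicate 3, and when all genes above 0 were tested, only Notch3 was called; the Kcnj8 call was lost in 5 of 6 fits with a library left out and the Rgs5 call in 4 of 6. Of 8 smooth muscle markers, Actg2 fell to 3.24% of its DMSO mean and 7 did not pass. With busulfan replicate 3 left out, 4 were called, 3 of them higher and 1 lower. Of 4 tested lymphatic markers, Pdpn, which epithelial cells and fibroblasts also express, fell from 40.1 ± 1.69 to 18.2 ± 0.708 FPKM and 3 did not pass, and the lymphatic factor gene Prox1 was under 0.2 FPKM in every library. Of 10 macrophage markers Cd68 rose, Csf1r fell and 8 did not pass. The Csf1r call was lost in 4 of 6 fits with a library left out and when all genes above 0 were tested (limma adjusted p = 0.0520), and with a library left out the calls numbered 1 to 3. Of 13 epithelial markers 5 rose and 7 fell, but with quantile normalization 5 rose and 1 fell, so the balance depends on the scaling.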
